A study of Mus musculus with 9 samples.

Results

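The genes described here are 10 core regulators of the G1 phase of the cell cycle in mouse thymus and thymus tumors. They are the D-type cyclins Ccnd1, Ccnd2 and Ccnd3, the cyclin-dependent kinases Cdk4 and Cdk6, the inhibitors Cdkn1b, Cdkn2a, Cdkn2b and Cdkn2c, and the retinoblastoma gene Rb1. They were chosen by name, and every probe set whose only gene symbol in the platform's gene table was one of the 10 was taken, which gave 26 probe sets. The table named 18193 genes in all. Total RNA from 3 groups was hybridised to Affymetrix Mouse430_2 arrays, with 3 arrays in each group: thymus tumors labelled as XIST resistant (XIST is the noncoding RNA that silences an X chromosome), other thymus tumors, and normal mouse thymus. The sources used here do not give strain, genotype, sex, age, the way the tumors arose or what makes a tumor resistant. They also do not state whether each array stands for its own animal, and the p-values therefore cover array-to-array spread that could be technical.

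D-type cyclins bind and activate CDK4 and CDK6, and the active kinases phosphorylate the retinoblastoma protein. Phosphorylated RB1 releases E2F transcription factors, which switch on genes for DNA synthesis. INK4 proteins, encoded by Cdkn2a, Cdkn2b and Cdkn2c, bind the kinases and keep them inactive, whereas the Cdkn1b product p27Kip1 mainly holds back cyclin E and CDK2. In the mouse, immature thymocytes rely on cyclin D3 to expand after pre-T cell receptor signalling, and Cdk6 is also known to be needed for normal thymocyte numbers.

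Start-site windows of genes with a finding are shown for orientation, each running from 250 bases before to 50 bases after a start in RefSeq (build GRCm38.p6). Cdk4 and Cdk6 are shown because both rose in tumors, and Cdkn2a because it has a pair of start sites that a single probe set could not separate. Windows were listed for 7 of the 10 genes. Capitals mark CACGTG (the E-box) or E2F-type letters, which are TTCCCGC or TTCGCGC or TTGCCGC or TTGGCGC, searched on both strands. No window printed held both kinds, so no matches overlapped.
Cdk4, chr10:127063285-127063584, plus strand: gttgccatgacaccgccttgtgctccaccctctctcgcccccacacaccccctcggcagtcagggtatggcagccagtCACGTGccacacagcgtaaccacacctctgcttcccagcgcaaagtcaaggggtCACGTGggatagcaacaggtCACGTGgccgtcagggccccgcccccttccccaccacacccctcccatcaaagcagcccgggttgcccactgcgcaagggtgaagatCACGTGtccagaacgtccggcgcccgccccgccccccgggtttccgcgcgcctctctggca
Cdk6, chr5:3343643-3343942, plus strand: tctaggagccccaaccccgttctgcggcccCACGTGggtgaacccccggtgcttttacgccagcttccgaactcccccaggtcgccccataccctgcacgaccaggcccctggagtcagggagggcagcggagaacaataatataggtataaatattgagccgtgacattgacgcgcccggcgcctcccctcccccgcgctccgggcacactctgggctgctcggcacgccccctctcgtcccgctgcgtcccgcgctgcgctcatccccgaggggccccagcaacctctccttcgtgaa
Cdkn2a, upstream start, chr4:89294570-89294869, minus strand: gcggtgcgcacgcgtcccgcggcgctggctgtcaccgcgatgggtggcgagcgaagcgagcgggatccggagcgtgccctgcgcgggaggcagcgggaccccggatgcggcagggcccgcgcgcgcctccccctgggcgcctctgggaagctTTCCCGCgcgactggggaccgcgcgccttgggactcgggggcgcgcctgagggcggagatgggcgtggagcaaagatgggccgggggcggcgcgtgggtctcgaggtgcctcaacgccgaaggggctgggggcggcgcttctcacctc
Cdkn2a, downstream start, chr4:89282143-89282442, minus strand: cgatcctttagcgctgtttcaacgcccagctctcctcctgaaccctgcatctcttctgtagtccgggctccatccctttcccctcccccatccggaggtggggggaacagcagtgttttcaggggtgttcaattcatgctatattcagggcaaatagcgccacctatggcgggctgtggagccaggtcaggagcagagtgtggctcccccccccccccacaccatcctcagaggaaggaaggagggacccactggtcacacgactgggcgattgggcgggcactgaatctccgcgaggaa

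The Cdk4 window held 4 copies of CACGTG, and the Cdk6 window held 1. CACGTG occurred in 7.15% of all 32851 windows, and 8 of them (0.0244%) held 4 or more copies. The upstream Cdkn2a window, which serves the p19Arf transcript, had 1 E2F-type match, and the downstream window, which serves p16Ink4a, had 0. E2F-type letters occurred in 9.57% of all windows. These matches describe letters only, and no binding was measured.

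Values are the deposited MAS5 signals in arbitrary units. Changes are differences of mean log2 signal, with values under 1 set to 1, given with the standard error of a limma fit to all 9 arrays. A gene was called at an adjusted p under 0.05 (Benjamini-Hochberg over 11671 genes). Each gene was represented by its brightest probe set that reached the array median on at least 3 of the 9 arrays. That filter kept 8 of the 10 genes, and Cdkn2a and Cdkn2b did not pass it. Levels of different genes are not compared, since each probe set has its own response.

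Array medians were 13.9 to 25.8. The arrays fell into a set of 4 without poly-A spike-in signal (resistant tumors 1 and 2, tumor 1, normal thymus 1) and a set of 5 with it (resistant tumor 3, tumors 2 and 3, normal thymus 2 and 3), and the first set had the higher medians. Each set held all 3 groups, so changes are given within both sets where they matter. T lineage genes were present in every group, with the summed signal of 10 measured markers at 13870 to 16457 in resistant tumors, 14788 to 17772 in tumors and 18647 to 20170 in normal thymus. Among these markers only Cd2, an adhesion receptor gene, stayed below the median of every tumor array of either kind. Of the 10 T lineage genes, 0 were called higher and 4 lower in tumors, and 0 higher and 5 lower in resistant tumors. The summed signal of 13 thymic epithelial markers was 283 to 535 in resistant tumors, 412 to 680 in tumors and 8995 to 9712 in normal thymus, and Foxn1, Psmb11, Pax1 and Aire were below the median of every tumor array. Of these 13 genes, 11 were called lower in each tumor group. Cldn3 went the other way and was called higher in resistant tumors, by 1.76-fold or more (limma adjusted p = 0.00763). For 11 fibroblast markers the summed signal was 3558 to 7948 in resistant tumors, 2789 to 6328 in tumors and 1340 to 1389 in normal thymus. Of these 11 genes, 7 were called higher and 1, Dcn, lower in resistant tumors, and 6 higher and 0 lower in tumors. The Dcn change in tumors was -1.14 ± 0.44, which was not called (limma adjusted p = 0.0635). Shares of all genes called higher and lower were 23.1% and 20.2% in resistant tumors, and 23.3% and 19.1% in tumors. B cell markers (7 measured) summed to 79.9 to 119 in resistant tumors, 54.0 to 150.0 in tumors and 271 to 318 in normal thymus, and 10 endothelial markers to 650.1 to 1037 in resistant tumors, 631 to 868 in tumors and 515 to 521 in normal thymus. Of the 10 endothelial genes, 5 were called higher and 1, Pecam1, lower in each tumor group. Pecam1 changed by -0.89 ± 0.20 in tumors and by -0.58 ± 0.20 in resistant tumors (limma adjusted p = 0.00541 and 0.0408). In whole tissue, fewer cells of a type and less RNA per cell cannot be told apart, and the part of these shifts in the results below was not tested.

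Against normal thymus, both tumor groups had more Cdk4, Cdk6 and Cdkn2c signal and less Ccnd2 and Cdkn1b signal. Of the 8 genes tested, 6 were called in tumors, with 3 higher and 3 lower. Over all genes tested, 42.4% were called, 23.3% higher and 19.1% lower. In resistant tumors 5 were called, with 3 higher and 2 lower, where 43.3% of all genes were called, 23.1% higher and 20.2% lower. Groups did not overlap for 5 of the 8 genes in each comparison, against 55.3% of all genes in tumors and 54.6% in resistant tumors. A share of 5 in 8 is near both backgrounds. The median absolute change of the 8 genes was 0.54 in tumors and 0.64 in resistant tumors, on the log2 scale, and over all genes tested it was 0.46 and 0.48. The 2 comparisons share the normal arrays. With the array medians set equal, only Ccnd2 and Cdk6 were called in each, and Cdk4, Cdkn1b and Cdkn2c lost their calls without a change of sign. Their changes were then 1.08 ± 0.43, -0.31 ± 0.37 and 0.70 ± 0.34 in tumors (limma adjusted p = 0.104, 0.630 and 0.190), and 0.82 ± 0.43, -1.02 ± 0.37 and 0.32 ± 0.34 in resistant tumors (limma adjusted p = 0.236, 0.0846 and 0.605), each with a larger standard error than without that scaling. That scaling left 878 of 2034 called genes higher in resistant tumors than in normal thymus, against 2696 of 5049 without it.

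**Figure D1:**
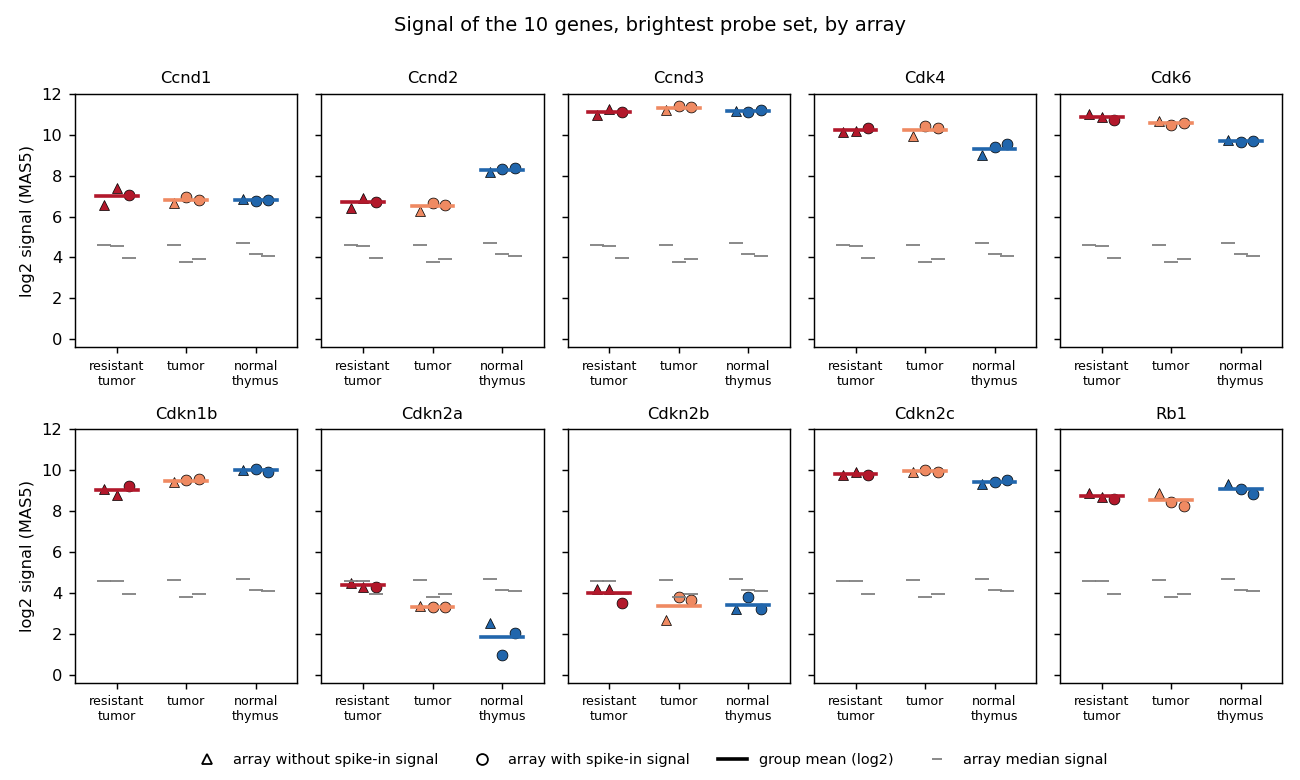
Log2 MAS5 signal of the brightest probe set of each of the 10 genes (vertical axis) in resistant tumors, tumors and normal thymus, 1 point per array. Bars are group means, grey dashes are array medians, and triangles and circles are arrays without and with spike-in signal. Ccnd2 and Cdkn1b are lowest in both tumor groups, Cdk4, Cdk6 and Cdkn2c are highest there, and nearly all Cdkn2a and Cdkn2b points lie under the array medians.

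Among the D-type cyclins, Ccnd2 had the largest change of the 8 genes tested, in both comparisons with normal thymus. Its signal was 87.0, 122 and 106 in resistant tumors, 78.0, 103 and 94.3 in tumors, and 287, 317 and 332 in normal thymus. Both tumor groups lay wholly under normal thymus and overlapped each other. Group means were 105 ± 17.3 in resistant tumors, 91.8 ± 12.7 in tumors and 312 ± 23.0 in normal thymus (SD, n = 3 arrays each). Ccnd2 fell by 1.77 ± 0.16 on the log2 scale in tumors, or 3.42-fold (limma adjusted p = 3.08e-05). In resistant tumors it fell by 1.59 ± 0.16, or 3.0-fold (limma adjusted p = 6.00e-05). Taken inside the set without spike-in signal and the set with it, the tumor change was -1.88 and -1.72, and the resistant tumor change was -1.48 and -1.62. All 7 Ccnd2 probe sets had a lower mean in both tumor groups. In a fit of 45037 probe sets without the filter on dim values, 6 of the 7 were called lower in tumors and 5 in resistant tumors, where 18.5% of all probe sets were called in each comparison. Between the tumor groups 0 of the 26 probe sets were called, where 0.0178% of all were. The Ccnd2 probe set not called in either comparison with normal thymus was 1416124_at, which was under the array median on all 9 arrays. In resistant tumors 1416123_at was also not called (limma adjusted p = 0.0501, and 0.0114 with a spike-in block). The signal of 1416123_at lay below the median of each tumor array, which bounds it at 1.81-fold lower or more in tumors and 1.53-fold lower or more in resistant tumors. Probe sets ending in _s_at or _x_at, among them 1448229_s_at and 1455956_x_at for Ccnd2 and 1422441_x_at for Cdk4, can also bind related transcripts.

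Ccnd3, the D-type cyclin that immature thymocytes need, gave a different answer by probe set. With its brightest probe set, 1415907_at, the signal was 1984, 2429.8 and 2211 in resistant tumors, 2343, 2709 and 2609 in tumors, and 2327, 2219 and 2396 in normal thymus. These groups overlapped, and the log2 change was 0.14 ± 0.10 in tumors (limma adjusted p = 0.277) and -0.07 ± 0.10 in resistant tumors (limma adjusted p = 0.583). The 95% intervals were -0.08 to 0.36 in tumors and -0.29 to 0.15 in resistant tumors.

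With 1438805_at, Ccnd3 had a signal of 95.7, 122 and 85.1 in resistant tumors, 180.3, 161 and 199.9 in tumors, and 428, 413 and 415 in normal thymus. The 3 groups did not overlap. Its change was -1.22 ± 0.14 in tumors and -2.07 ± 0.14 in resistant tumors (limma fit of all probe sets, adjusted p = 0.000740 and 6.61e-05). Between resistant tumors and tumors it changed by -0.85 ± 0.14, which was not called (adjusted p = 0.180 in the same fit), with -0.74 in the set without spike-in signal and -1.08 in the set with it. The third probe set, 1444323_at, had changes of 0.16 ± 0.12 in tumors and -0.06 ± 0.12 in resistant tumors. The sources used here do not say where each probe set lies on the Ccnd3 transcripts. Averaging the 3 probe sets turned the tumor change to -0.30 (limma adjusted p = 0.0400) and made the resistant tumor change -0.73 (limma adjusted p = 0.000500).

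Ccnd1, a D-type cyclin used by many non-lymphoid cells, was not called with its brightest probe set. Its signal there was 94.5, 166 and 133 in resistant tumors, 101, 123 and 114 in tumors, and 115, 109 and 111 in normal thymus. The groups overlapped, and the spread was widest in resistant tumors (SD 35.9, against 11.1 in tumors and 3.15 in normal thymus). The log2 change was 0.00 ± 0.20 in tumors and 0.19 ± 0.20 in resistant tumors (limma adjusted p = 0.991 and 0.464), with 95% intervals of -0.44 to 0.44 and -0.25 to 0.63. With 1417420_at the signal was 91.1, 123 and 113 in resistant tumors, 90.7, 103 and 84.1 in tumors, and 84.6, 62.1 and 46.1 in normal thymus. For that probe set the resistant tumors lay wholly above normal thymus, while the tumors overlapped it. Its change of 0.80 ± 0.23 was called in resistant tumors (limma fit of all probe sets, adjusted p = 0.0429), and 0.57 ± 0.23 was not called in tumors (adjusted p = 0.137). The resistant tumor change of 1417420_at was 0.33 in the set without spike-in signal and 1.08 in the set with it. The third probe set, 1417419_at, changed by 1.06 ± 0.46 in resistant tumors, which was not called (limma fit of all probe sets, adjusted p = 0.168) and was called with a spike-in block (adjusted p = 0.0228). With equal array medians, neither 1417420_at nor 1417419_at was called in resistant tumors (adjusted p = 0.213 and 0.0756 in that fit). Averaged over the 3 probe sets, Ccnd1 rose by 0.68 ± 0.23 in resistant tumors (limma adjusted p = 0.0373). The summed fibroblast and endothelial markers given above were also higher in both tumor groups than in normal thymus, and their part in the Ccnd1 values was not tested.

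**Figure D2:**
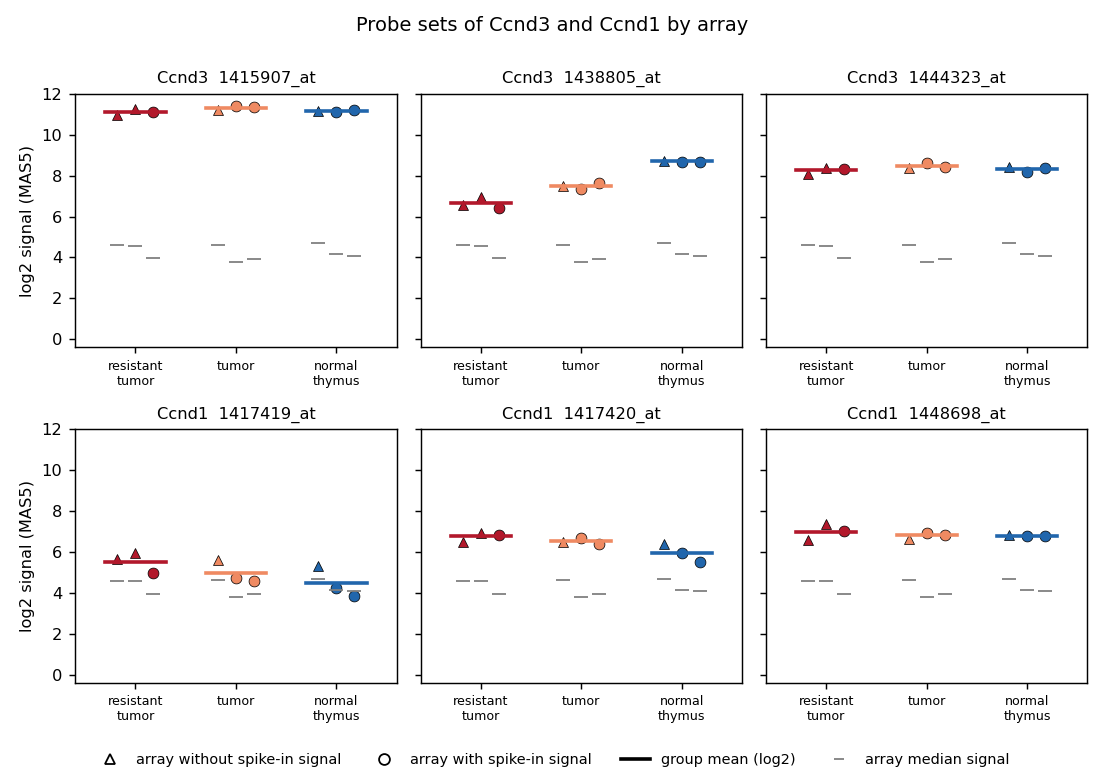
Log2 MAS5 signal (vertical axis) of the 3 probe sets of Ccnd3 (top) and the 3 of Ccnd1 (bottom) in resistant tumors, tumors and normal thymus, 1 point per array, with group means as bars and array medians as grey dashes. For Ccnd3, 1438805_at steps down to 101 ± 19.2 in resistant tumors and 180.4 ± 19.4 in tumors, against 418.5 ± 7.95 in normal thymus, while the groups overlap with the other probe sets.

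Both kinase genes rose. Cdk4 had a signal of 1116, 1175 and 1288 in resistant tumors, 974, 1381 and 1292 in tumors, and 521, 685 and 751 in normal thymus. Every tumor array of either kind was above every normal array, and the tumor groups overlapped. Cdk4 rose by 0.90 ± 0.17 in tumors, or 1.86-fold (limma adjusted p = 0.00196), and by 0.88 ± 0.17 in resistant tumors, or 1.85-fold (limma adjusted p = 0.00217). All 3 of its probe sets were called higher in both comparisons, with changes of 0.90 to 1.12 in tumors and 0.88 to 1.09 in resistant tumors.

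Cdk6, the relative of CDK4 that is prominent in blood cells, had a signal of 2064, 1854 and 1725 in resistant tumors, 1629, 1438 and 1522 in tumors, and 857, 799 and 845 in normal thymus. The 3 groups did not overlap with this probe set. Cdk6 rose by 0.87 ± 0.09 in tumors, or 1.83-fold (limma adjusted p = 8.30e-05), and by 1.17 ± 0.09 in resistant tumors, or 2.25-fold (limma adjusted p = 1.46e-05). Of its other probe sets, 1455287_at changed by 1.07 ± 0.16 in tumors and 1.11 ± 0.16 in resistant tumors, both called. The dimmer 1460291_at rose by 1.86 ± 0.46 in resistant tumors (limma fit of all probe sets, adjusted p = 0.0259). Its change of 1.28 ± 0.46 in tumors was not called (adjusted p = 0.102 in that fit). With a spike-in block or equal array medians that tumor change was called (adjusted p = 0.00988 and 0.00863). Equal array medians took both calls from 1455287_at (adjusted p = 0.0999 in tumors and 0.181 in resistant tumors). In that setting 1435338_at was not called either (adjusted p = 0.0617 in tumors and 0.0530 in resistant tumors). The separation of the tumor groups seen with 1435338_at was absent with 1455287_at, where resistant tumors had 1494, 1371 and 1765 and tumors had 1172, 1629 and 1754.

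Among all tested genes, those closest to Cdk6 over the 9 arrays were Thnsl2, Tmem131 and Acsl3, with root mean square differences of centred log2 signal of 0.09, 0.09 and 0.10, where the median gene was at 0.59. For Ccnd2 they were A930003A15Rik, Arhgef6 and H2-Ab1, at 0.10, 0.11 and 0.15, where the median gene was at 0.91. These are descriptions over arrays that share groups and spike-in sets.

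Inhibitor genes moved in both directions. Cdkn1b, which encodes p27Kip1, had a signal of 544, 435 and 606 in resistant tumors, 686, 731 and 750.0 in tumors, and 1043, 1055 and 962 in normal thymus. The 3 groups did not overlap, with resistant tumors lowest. Cdkn1b fell by 0.50 ± 0.13 in tumors, or 1.41-fold (limma adjusted p = 0.00988), and by 0.96 ± 0.13 in resistant tumors, or 1.95-fold (limma adjusted p = 0.000258). The tumor and resistant tumor changes were -0.60 and -1.10 within the arrays without spike-in signal, and -0.44 and -0.73 within those with it. Its second probe set, 1419497_at, was under the array median on all 9 arrays and is given no fold.

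Cdkn2c, which encodes the INK4 protein p18Ink4c, had a signal of 886, 952 and 869.6 in resistant tumors, 982, 1017 and 958 in tumors, and 644, 699.8 and 729 in normal thymus. All tumor arrays were above all normal arrays. Cdkn2c rose by 0.51 ± 0.09 in tumors, or 1.43-fold (limma adjusted p = 0.00137), and by 0.39 ± 0.09 in resistant tumors, or 1.31-fold (limma adjusted p = 0.00650).

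Cdkn2a, which encodes p16Ink4a and p19Arf from the start sites shown above, was dim throughout. Its only probe set gave 22.6, 19.4 and 19.8 in resistant tumors, 10.1, 9.89 and 10.03 in tumors, and 5.84, 1.95 and 4.15 in normal thymus. The 3 groups did not overlap, but only 1 of the 9 values, that of resistant tumor 3, reached its array median. Without the filter, the probe set was called in resistant tumors against normal thymus (limma fit of all probe sets, adjusted p = 0.00739), and no fold is given because the other 2 resistant tumor values were also under their array medians. In tumors against normal thymus it was not called (adjusted p = 0.0682), except with a spike-in block (adjusted p = 0.0263), and it was not called between the tumor groups (adjusted p = 0.951). The array median is only a stand-in for detection calls, which are not used here. Groups did not overlap in 33.1% of all probe sets for resistant tumors against normal thymus, in 33.2% for tumors against normal thymus and in 7.4% between the tumor groups. Cdkn2b, the neighbouring INK4 gene, had 18.5, 18.3 and 11.4 in resistant tumors, 6.40, 13.9 and 12.5 in tumors, and 9.31, 13.8 and 9.14 in normal thymus. These values overlapped, 1 of 9 reached its array median, and no comparison was called. On chromosome 4 (GRCm38.p6) Cdkn2a spans bases 89274473 to 89294619 and Cdkn2b spans 89306289 to 89311032. Of 5 genes near them, 2 were bright enough to test. One of these, Mtap, a gene of the methionine salvage pathway, rose by 0.98 ± 0.16 in tumors and by 0.86 ± 0.16 in resistant tumors (limma adjusted p = 0.00101 and 0.00219). The other, Klhl9, changed by -0.09 ± 0.20 in tumors and by -0.21 ± 0.20 in resistant tumors, and neither was called (limma adjusted p = 0.751 and 0.422).

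Rb1 had a signal of 476, 412 and 385 in resistant tumors, 473, 355 and 304 in tumors, and 643, 547 and 465 in normal thymus. The groups overlapped in both comparisons with normal thymus, and the arrays without spike-in signal were the brightest in each group. Rb1 fell by 0.56 ± 0.18 in tumors (limma adjusted p = 0.0312). Its change of -0.37 ± 0.18 in resistant tumors was not called (limma adjusted p = 0.127), with a 95% interval of -0.78 to 0.03. The tumor call was lost without tumor 2, tumor 3, normal thymus 1 or normal thymus 2, where the change was -0.53, -0.42, -0.44 and -0.56 (limma adjusted p = 0.0895, 0.119, 0.107 and 0.0796), and also under quantile normalization, without the filter and without the intensity trend (limma adjusted p = 0.0553, 0.0524 and 0.0515). With equal array medians the change was -0.37 (limma adjusted p = 0.425), and inside the set without spike-in signal it was -0.44 (limma adjusted p = 0.167). Blocking on the spike-in set gave a resistant tumor change of -0.49, which was called (limma adjusted p = 0.00394). The second Rb1 probe set, 1444400_at, was under the array median on all 9 arrays.

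**Figure D3:**
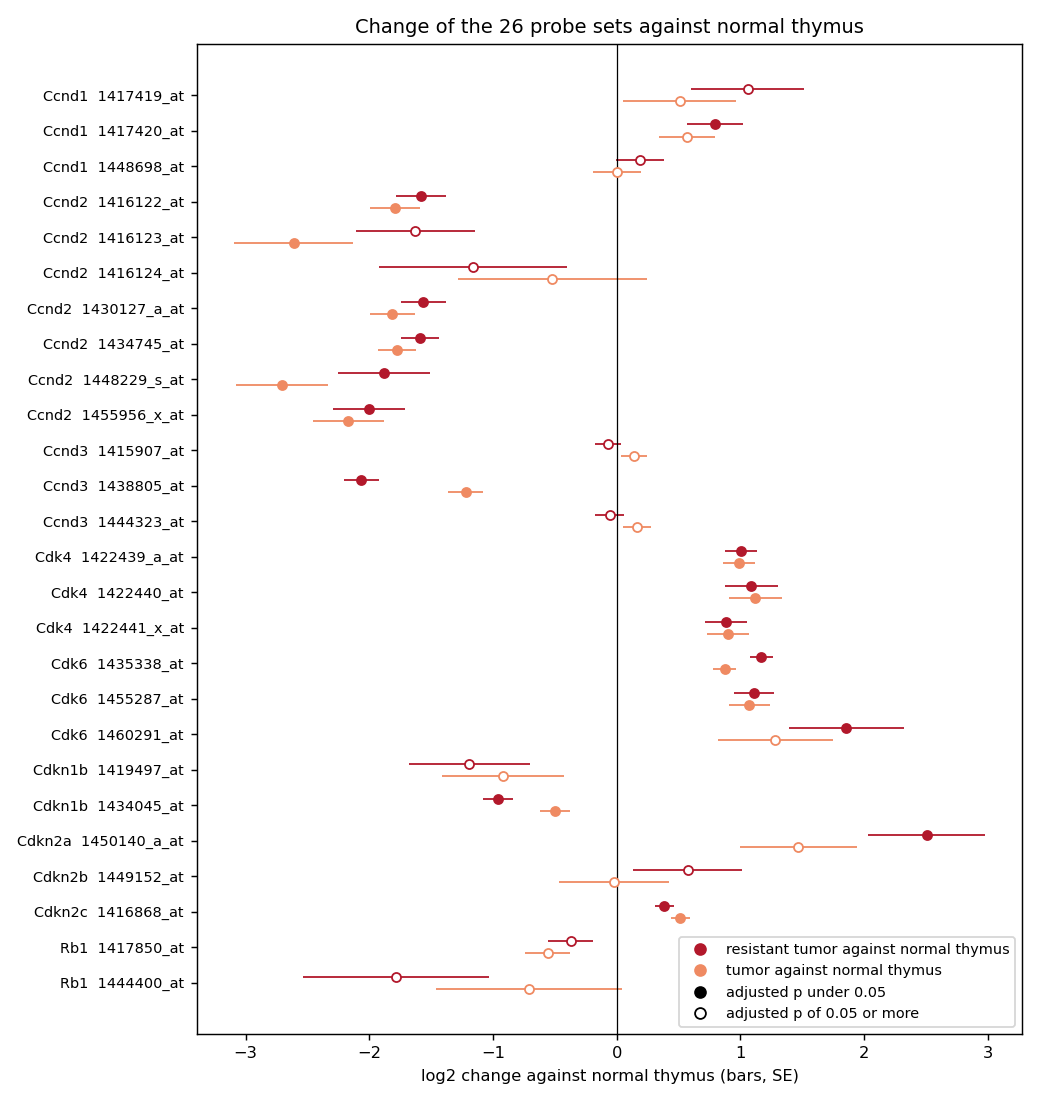
Log2 change against normal thymus (horizontal axis, bars are SE) of each of the 26 probe sets in resistant tumors and in tumors, from a limma fit of all probe sets without a filter. Filled points have an adjusted p under 0.05. Ccnd2 lies left of 0 and Cdk4 and Cdk6 right of it with every probe set, while the Ccnd3 probe sets disagree. Cdkn2a, Cdkn2b, 1416124_at, 1419497_at and 1444400_at were under the array median on at least 8 of the 9 arrays, and 1416123_at on all tumor arrays, so the sizes plotted for them are not folds.

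Of the 8 genes, 0 were called between resistant tumors and tumors by limma, beside a background of 0.36% of all genes (15 of 42 higher, and 4 of 18 with equal array medians). At an unadjusted p under 0.05 there were 2, Cdkn1b and Cdk6, and no other tool was run. Groups did not overlap for 3 of the 8 genes, Cdkn1b, Cdk6 and Cdkn2c, where 10.4% of all genes did not. The Cdkn1b change was -0.46 ± 0.13 (95% interval -0.74 to -0.18, limma adjusted p = 0.255), and the Cdk6 change was 0.30 ± 0.09 (0.08 to 0.51, limma adjusted p = 0.404). For Cdkn2c it was -0.13 ± 0.09, and for Ccnd3 -0.21 ± 0.10 with its brightest probe set. The Ccnd2 interval ran from -0.18 to 0.55 and the Cdk4 interval from -0.39 to 0.36, so differences between the tumor groups inside those ranges are not excluded.

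Differences between 2 genes within an array do not move with the scaling of that array. Log2 Ccnd2 minus log2 Ccnd3 was -4.51, -4.32 and -4.39 in resistant tumors, -4.91, -4.72 and -4.79 in tumors, and -3.02, -2.81 and -2.85 in normal thymus. These use the brightest probe set of Ccnd3, 1415907_at, and the 3 groups did not overlap, with tumors lowest. With 1438805_at in its place, a choice made after seeing the data, the difference was -0.14, -0.01 and 0.31 in resistant tumors, -1.21, -0.64 and -1.08 in tumors, and -0.57, -0.38 and -0.32 in normal thymus, so resistant tumors lay above normal thymus and tumors stayed under it. With 1444323_at, also taken after seeing the data, the difference averaged -1.56 ± 0.11 in resistant tumors, -1.97 ± 0.09 in tumors and -0.03 ± 0.19 in normal thymus (SD). That is the group order of 1415907_at. Log2 Cdkn1b minus log2 Cdkn2c was -0.70, -1.13 and -0.52 in resistant tumors, -0.52, -0.48 and -0.35 in tumors, and 0.69, 0.59 and 0.40 in normal thymus, so both tumor groups lay under normal thymus. Log2 Cdk6 minus log2 Cdk4 averaged 0.66 ± 0.23 in resistant tumors, 0.35 ± 0.35 in tumors and 0.37 ± 0.30 in normal thymus (SD, n = 3), with overlapping groups. Arrays without spike-in signal had 0.89 and 0.66 in resistant tumors, 0.74 in tumors and 0.72 in normal thymus. Arrays with it had 0.42 in resistant tumors, 0.06 and 0.24 in tumors, and 0.22 and 0.17 in normal thymus, so these group means also depend on the spike-in sets. Log2 Ccnd1 minus log2 Ccnd3 averaged -4.11 ± 0.26 in resistant tumors, -4.51 ± 0.04 in tumors and -4.37 ± 0.06 in normal thymus with 1415907_at. With 1438805_at it averaged 0.35 ± 0.34 in resistant tumors, -0.68 ± 0.25 in tumors and -1.90 ± 0.01 in normal thymus. With 1444323_at it averaged -1.26 ± 0.27 in resistant tumors, -1.67 ± 0.05 in tumors and -1.51 ± 0.11 in normal thymus. These differences show unequal change of the paired genes, not which of them changed.

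**Figure D4:**
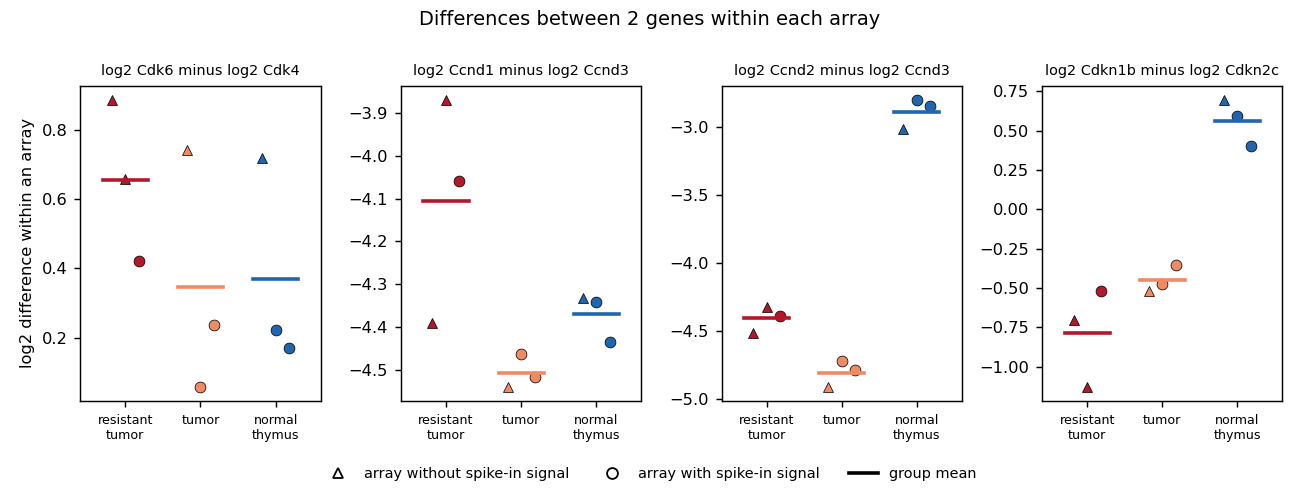
Log2 signal of one gene minus that of another within each array (vertical axes, each with its own range) in resistant tumors, tumors and normal thymus, with group means as bars. The Ccnd2 to Ccnd3 and Cdkn1b to Cdkn2c differences put both tumor groups under normal thymus, and the Cdk6 to Cdk4 difference does not. Ccnd3 is plotted with 1415907_at. With 1438805_at the resistant tumors had a Ccnd2 difference of 0.05 ± 0.23, above -0.42 ± 0.13 in normal thymus. With 1444323_at the resistant tumors had -1.56 ± 0.11, under -0.03 ± 0.19 in normal thymus.

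Other genes of the pathway were read from lists. Among 23 other G1/S regulators, all tested, 6 rose and 5 fell in tumors and 6 rose and 6 fell in resistant tumors, near the 42.4% and 43.3% of all genes called. The list medians were 0.12 and 0.07, where all genes had 0.05 and 0.06. Cdkn1a, which encodes p21Cip1, rose by 1.30 ± 0.39 in tumors and by 1.75 ± 0.39 in resistant tumors (limma adjusted p = 0.0237 and 0.00564). Cdkn1c, which encodes p57Kip2, rose by 2.41 ± 0.33 in resistant tumors, and by 1.03 ± 0.33 in tumors, with signals of 235 ± 108 in resistant tumors, 83.5 ± 4.40 in tumors and 41.7 ± 10.5 in normal thymus (limma adjusted p = 0.000333 and 0.0286). Rbl2, which encodes the RB1 relative p130, fell by 1.58 ± 0.16 in tumors and by 1.75 ± 0.16 in resistant tumors (limma adjusted p = 5.19e-05 and 2.85e-05). E2f7, a repressor E2F, fell by 1.499 ± 0.26 in tumors and by 1.68 ± 0.26 in resistant tumors (limma adjusted p = 0.00154 and 0.000799). E2f2, an activator, fell by 1.39 ± 0.21 in tumors and by 1.26 ± 0.21 in resistant tumors (limma adjusted p = 0.000655 and 0.00113). Picked after their values were seen, the activators E2f1 and E2f3 rose in tumors by 0.90 ± 0.22 and 0.77 ± 0.12 (limma adjusted p = 0.00915 and 0.000625). In resistant tumors these 2 genes rose by 0.63 ± 0.22 and 0.66 ± 0.12 (limma adjusted p = 0.0430 and 0.00150). E2f6, picked likewise, rose by 1.14 ± 0.17 in tumors and by 1.29 ± 0.17 in resistant tumors (limma adjusted p = 0.000575 and 0.000284). Cdk2, picked likewise, fell by 0.65 ± 0.17 in tumors and by 0.62 ± 0.17 in resistant tumors (limma adjusted p = 0.0121 and 0.0159). Also picked that way, Cdkn2d, the remaining INK4 gene, fell by 1.19 ± 0.10 in tumors and by 0.89 ± 0.10 in resistant tumors (limma adjusted p = 1.80e-05 and 0.000103).

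Of 19 E2F target genes tested, 10 rose and 0 fell in tumors and 11 rose and 0 fell in resistant tumors. Over all genes, 23.3% were called higher in tumors and 23.1% in resistant tumors. The list medians were 0.37 and 0.59, against 0.05 and 0.06 over all genes. Tk1 (thymidine kinase) rose by 1.22 ± 0.14 in tumors and by 0.90 ± 0.14 in resistant tumors, and Gins2, a subunit of the replicative helicase, by 1.03 ± 0.15 and 1.13 ± 0.15. Cdc6, which loads that helicase, rose by 0.72 ± 0.10 in tumors and by 0.91 ± 0.10 in resistant tumors. Among 13 proliferation markers of G2 and mitosis, in contrast, 1 rose and 1 fell in tumors and 2 fell in resistant tumors, with medians of -0.13 and -0.16. Shares of all genes called lower were 19.1% in tumors and 20.2% in resistant tumors, and 2 in 13 is near the second of these. Mki67, a marker of cycling cells chosen here after its value was seen, changed by 0.00 ± 0.10 in tumors and by -0.04 ± 0.10 in resistant tumors (limma adjusted p = 0.98 and 0.765).

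In the list of 10 tested genes for turnover of p27Kip1 and cyclins, 3 rose in tumors and 5 in resistant tumors, and 0 fell in either, where 23.3% and 23.1% of all genes rose. The count of 3 in 10 is near that background. Skp2, the F-box protein gene that directs p27Kip1 to degradation, rose by 0.75 ± 0.23 in resistant tumors (limma adjusted p = 0.0250), and its change of 0.48 ± 0.23 in tumors was not called. Fbxo31, an F-box gene linked to cyclin D1 turnover, rose by 1.31 ± 0.21 in tumors and by 1.18 ± 0.21 in resistant tumors. Cul1, the scaffold of these ligases, rose by 0.50 ± 0.10 in both. Among 13 tested regulators of the Cdkn2a locus, 2 rose and 4 fell in tumors, and 1 rose and 3 fell in resistant tumors, near or under the 42.4% and 43.3% of all genes called. Id1, an inhibitor of E proteins and of ETS-driven Cdkn2a transcription, rose by 2.45 ± 0.27 in tumors and by 2.52 ± 0.27 in resistant tumors. Ets1 fell by 0.62 ± 0.17 and 0.66 ± 0.17, and Cbx8, a Polycomb subunit gene, by 0.74 ± 0.25 and 0.90 ± 0.25. Bmi1, the other gene of this list that rose in tumors, was picked after its value was seen. It rose by 0.56 ± 0.20 there (limma adjusted p = 0.0468). The Bmi1 change of 0.15 ± 0.20 in resistant tumors was not called (limma adjusted p = 0.582). Between resistant tumors and tumors, 0 genes of these lists were called by limma.

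**Figure D5:**
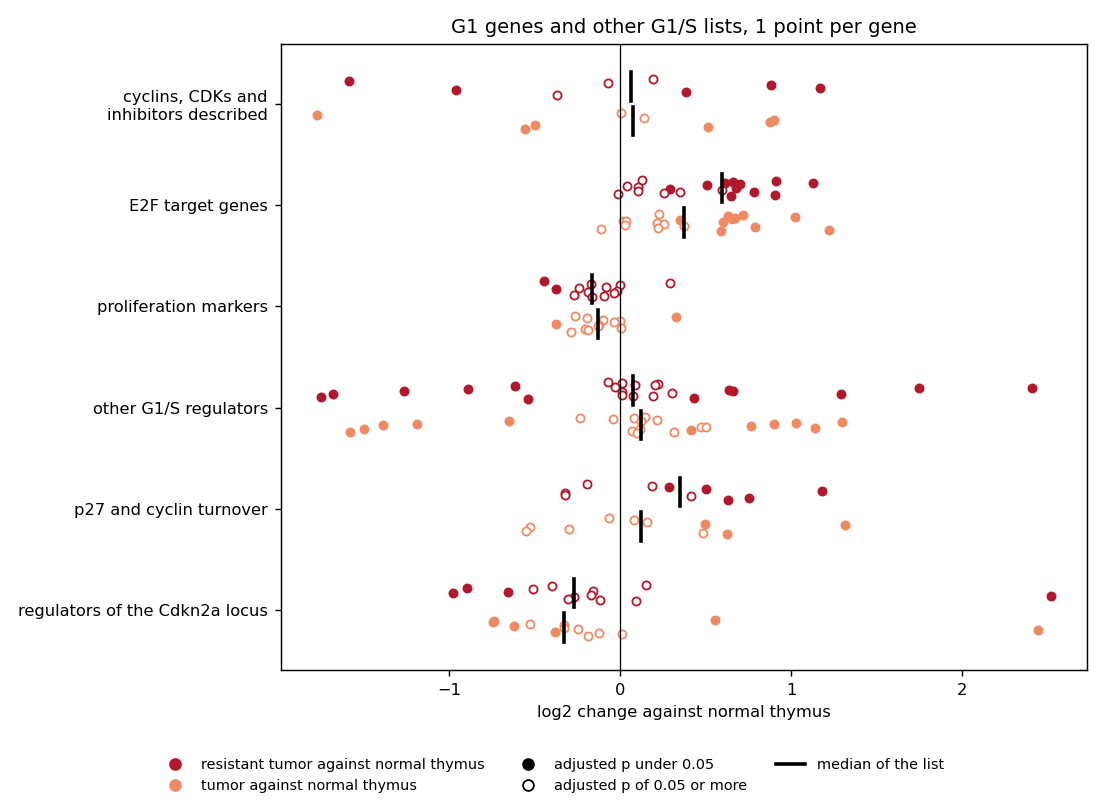
Log2 change against normal thymus (horizontal axis) of the 8 tested genes described here and of the tested genes of 5 other lists, in resistant tumors and in tumors, 1 point per gene. Filled points are called and black bars are list medians, which lie at 0.59 and 0.37 for E2F targets and at -0.16 and -0.13 for proliferation markers.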

How the data were processed

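Total RNA was labelled with biotin and hybridised to Mouse430_2 arrays, per the labels' protocols. The deposited values are linear signal intensity values that the authors made with MAS5, a program named in the submitters' processing notes. The sources used here give no version, scaling target or genome build. The mean of each array without the lowest and highest 2% of values was 100 in all 9 arrays, as after scaling to a common target.

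From these values, log2 was taken after setting values under 1 to 1, with no further normalization. Of 45101 probe sets, 34945 had 1 symbol, 932 had several, 9160 were not listed and 64 were controls. Probe sets with 1 symbol that reached their array median on at least 3 arrays numbered 20917, and the brightest stood for its gene. limma 3.58.1 (R 4.3.3) was fitted to all 9 arrays with an intensity trend and 6 residual degrees of freedom, two-sided, with Benjamini-Hochberg adjustment over 11671 genes. A second fit took all 45037 probe sets outside the controls. The scripts were tested on simulated data. Where all 3 arrays of a group were under their medians, only a bound is given for that group. Figures used matplotlib 3.10.9.

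In tumor 1 the control rows were listed in a different order (correlation with their mean -0.295 as listed, 0.907 after sorting by name), and its other rows correlated at 0.957. Spike-in sets were read after that sorting. Samples with the same replicate number in tumors and normal thymus deviated together (correlations 0.654, 0.371 and 0.411), and so did arrays of the same spike-in set with other numbers (0.449 and 0.362). For resistant tumor 2 the correlations with the same number were -0.301 and -0.337. With tumor 1 and normal thymus 1, which share its spike-in set but not its number, resistant tumor 2 correlated at 0.532 and 0.417. A pairing by number within a spike-in set was not tested, and the number entered as a block in an alternative fit only.

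The 10 genes and the lists were chosen with earlier results of these data known. All 10 genes are named. From each list, counts are given and up to 4 called genes per comparison with the largest change and no overlap could be named. The 3 genes most like a member were sought for members called with a change of at least 1. Alternatives were quantile normalization, equal array medians, an offset of 50, a floor of 16, 2 other filters, no trend, the mean over probe sets, the spike-in set or replicate number as a block, each spike-in set alone and leaving out each array.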

Additional observations from a re-analysis of the deposited data

How the results depend on the processing

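In the fits of genes, Ccnd2 and Cdk6 kept their direction and their calls against normal thymus under all 22 alternatives tried. Ccnd2 was at -2.15 to -1.36 in tumors and -1.71 to -1.23 in resistant tumors, and Cdk6 at 0.83 to 1.08 and 1.07 to 1.38. In the fit of all probe sets with equal array medians, 1435338_at of Cdk6 was not called (limma adjusted p = 0.0617 in tumors and 0.0530 in resistant tumors). With equal array medians, the all-gene median change became 0.24 in tumors and 0.00 in resistant tumors against normal thymus, and -0.26 between the tumor groups, and 2 of the 8 genes were called in each comparison with normal thymus. The probe sets called then were 8 and 9, against 14 and 16 of 26, and the genes called in all were 2287 and 2034, and 18 between the tumor groups. With a spike-in block added to equal medians, an alternative chosen after seeing the data, 7 and 6 of the 8 were called. Within the arrays without spike-ins, which hold 1 tumor and 1 normal array and leave 1 residual degree of freedom, 3 of the 8 were called in tumors, and 2117, 3069 and 1 genes in all in tumors, in resistant tumors and between the groups. Of all genes, 42 were called between resistant tumors and tumors. The count was 143 when blocking on the spike-in set, 137 with equal medians added to it, 553 within the arrays with spike-ins (1 resistant tumor array, assumed to vary like the other groups), 22 with no filter, 23 with a filter at the 75th percentile and 27 with the mean over probe sets. Leaving out 1 array gave 8 (without tumor 2) to 70 (without resistant tumor 3) genes between the tumor groups, with 10, 19 and 20 without tumor 3, normal thymus 3 and normal thymus 2. It gave 3878 to 5374 genes in tumors and 3818 to 5310 in resistant tumors, and 5 to 6 of the 8 in tumors, 5 in resistant tumors and 0 between them each time. With the replicate block, 6 of the 8 were called in tumors and 6 in resistant tumors, Rb1 being added (adjusted p = 0.0117), and 92 genes between the tumor groups. The replicate block changed no other call of the 8.

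Changes of sign occurred for values that were small and not called, and of these only Ccnd3 averaged over its probe sets was then called (adjusted p = 0.0400). Ccnd1 in tumors was -0.00 (-0.0045) with quantile normalization and -0.20 within the arrays without spike-ins, and -0.0621 to 0.0807 leaving out 1 array. Ccnd3 in tumors was -0.30 with the mean over probe sets, and in resistant tumors 0.10 with equal medians and the block and -0.14 to 0.00 (0.0031) leaving out 1 array. With equal medians, the changes of Ccnd1, Ccnd2 and Rb1 between the tumor groups were -0.0586, -0.0604 and -0.0597, and Rb1 was -0.10 within the arrays without spike-ins. Cdk4 there was 0.11 with the spike-in block, 0.23 within the arrays without spike-ins, 0.0752 with equal medians and the block, and -0.17 to 0.0861 leaving out 1 array, against -0.01. For Ccnd1 between the tumor groups, leaving out 1 array gave -0.00 (-0.0016) to 0.41. The cause of these shifts was not tested. No detection calls were used, so values near the array medians limit Cdkn2a and Cdkn2b.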
